A study of Mus musculus with 24 samples.

Results

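The 10 genes described here, Vdr, Arhgap36, Sncg, Lgals1, Slc5a5, Palm3, Fam131c, Ppm1j, Trim58 and Srp54a, were picked from the 38924 genes listed per library. They were chosen because their counts in spinal cord ribosome pulldowns were many-fold higher in mice with Cre than in mice without it, and because they lie outside the classical cholinergic genes. Their Cre over no-Cre values below are therefore a description and carry no test; no threshold was given with the choice.

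The 24 libraries hold ribosome-associated RNA from spinal cords of mice aged 8 weeks on a B6.CgxB6.129 background, with 6 mice in each of 4 groups. In the RiboTag method, Cre switches the ribosomal protein Rpl22 to a haemagglutinin-tagged form, so that tagged ribosomes can be pulled down together with the mRNA they carry. Cre came from the Chat locus, so any cholinergic cell of the cord can carry the tag, motor neurons and other cholinergic neurons alike. The groups were C201R Cre (labelled Rpl+/-;Chat+/-;C201R+/-), WT Cre (Rpl+/-;Chat+/-;C201R+/+), C201R no Cre (Rpl+/-;Chat+/+;C201R+/-) and WT no Cre (Rpl+/-;Chat+/+;C201R+/+). In this notation +/+ means the unaltered allele, since the labels name the C201R+/+ mice WT. All 24 mice carried 1 Rpl22 tag allele, the no-Cre mice included, and C201R is a point mutation of Gars, the gene of glycyl-tRNA synthetase. The whole cord was taken, so each library averages over its cells. Fewer cells of a type and less RNA per cell cannot be told apart in such samples.

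As background, motor neurons are large cholinergic cells that send their axons out of the cord, and the 10 genes play unrelated roles. Vdr is the nuclear receptor of vitamin D and binds DNA with a retinoid X receptor. Arhgap36 is named for a GTPase-activating domain and is known to block protein kinase A and to favour Hedgehog signalling. Sncg is gamma-synuclein, a small protein abundant in peripheral neurons, and Lgals1 is galectin-1, which binds beta-galactosides. Slc5a5 is the sodium/iodide symporter known from the thyroid, and Palm3 is a paralemmin, of a family of membrane-bound proteins. Ppm1j is a serine/threonine phosphatase of the PP2C type. Trim58 is a ubiquitin ligase known from red cell maturation in mice, where it acts on dynein. Srp54a is a copy of the signal recognition particle subunit that binds signal peptides, and the role of Fam131c is little known.

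The Srp54a sequence is shown first, because it limits what its counts can mean. The coding sequence of the Srp54a transcript counted by the authors, 1515 bases with the stop codon, differs from that of Srp54b at 0 bases and from that of Srp54c at 6 bases (GENCODE M21, same transcript identifiers). All 3 genes lie on chromosome 12. The stretch from coding base 876 to 965 shows 3 of those 6 positions in capitals.
Srp54a: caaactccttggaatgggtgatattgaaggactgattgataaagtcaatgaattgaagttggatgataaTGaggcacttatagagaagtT
Srp54b: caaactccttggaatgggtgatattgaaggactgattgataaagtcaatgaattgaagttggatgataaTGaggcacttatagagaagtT
Srp54c: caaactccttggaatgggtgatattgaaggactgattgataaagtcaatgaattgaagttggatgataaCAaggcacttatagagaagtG
The Srp54a model has no bases outside its coding sequence, and 100% of its 1355 windows of 161 bases also occur in Srp54b or Srp54c. That window is the median fragment length implied by the deposited effective lengths. For Srp54b the share was 96.6% and for Srp54c 74.3%, whereas the other 9 genes shared 0 windows with any other gene. The split of reads between Srp54a and Srp54b was therefore made by the estimation step of RSEM, and the single-gene value of Srp54a is uncertain. The deposited length of Srp54b, 3286 bases, is shorter than the 3646 bases of the transcript at hand, so its share may differ in the authors' annotation. Windows were matched against all M21 transcripts, so the shares of Srp54b and Srp54c can include transcripts that the authors did not count.

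Promoters are shown for Vdr, Sncg and Palm3 as examples of the members. Each is the stretch of 250 bases before the RefSeq start site (GRCm38.p6), read along the gene's strand. Capitals mark matches to GGGCGG on either strand.
Vdr, chr15:97908297-97908546, minus strand: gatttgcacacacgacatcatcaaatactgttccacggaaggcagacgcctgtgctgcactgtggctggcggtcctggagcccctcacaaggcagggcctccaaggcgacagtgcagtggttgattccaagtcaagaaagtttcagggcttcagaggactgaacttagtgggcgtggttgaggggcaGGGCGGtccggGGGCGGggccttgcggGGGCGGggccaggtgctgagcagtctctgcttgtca
Sncg, chr14:34374670-34374919, minus strand: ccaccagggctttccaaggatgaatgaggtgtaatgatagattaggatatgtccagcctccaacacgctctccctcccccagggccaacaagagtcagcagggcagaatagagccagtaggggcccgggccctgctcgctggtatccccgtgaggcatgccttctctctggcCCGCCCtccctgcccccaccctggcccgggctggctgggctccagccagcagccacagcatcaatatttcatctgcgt
Palm3, chr8:84021224-84021473, plus strand: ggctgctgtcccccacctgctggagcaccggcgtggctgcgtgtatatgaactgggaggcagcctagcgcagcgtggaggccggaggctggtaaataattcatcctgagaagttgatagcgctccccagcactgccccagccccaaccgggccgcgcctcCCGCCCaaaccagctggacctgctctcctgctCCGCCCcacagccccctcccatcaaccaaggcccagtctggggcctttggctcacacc
Windows were found for 9 of the 10 genes. GGGCGG, the core of the GC box, occurred in those of 6 genes and in 32.7% of all 32851 windows in the table. The examples shown are all among these 6 genes, whereas the windows of Arhgap36, Trim58 and Srp54a held 0 matches. AGGTCA, a nuclear receptor motif, occurred in those of Arhgap36, Fam131c and Srp54a and in 14% of all windows. TAATTA, a homeodomain core, and TATAAA, the TATA box, occurred in 0 of the members' windows, against 4.84% and 12.4% of all windows. Both strands were searched and none of these motifs contains another; a match describes letters only.

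Library totals ran from 8898845 to 28294972 expected counts. Mitochondrial transcripts took 1.24 to 17.1% of counts with Cre and 35.2 to 55.5% without Cre, and Gm26924, a locus annotated over ribosomal RNA sequence, took 7.45 to 43.3% with Cre and 1.60 to 7.60% without. Of 8 markers of cholinergic and motor neurons in the files, 8 were higher with Cre in edgeR's quasi-likelihood test, among them Chat at a log2 change of 4.44 ± 0.25 (SE). Markers of oligodendrocytes (6 of 6), astrocytes (5 of 5) and other spinal neurons (5 of 5 tested) were lower. Gars, the mutated gene, was 0.80 ± 0.12 higher on the log2 scale in C201R Cre than in WT Cre libraries (SE, adjusted p = 0.0020).

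Arhgap36, Sncg, Lgals1 and Palm3 were the most abundant members in the pulldowns with Cre and were still detected without it, whereas Fam131c, Ppm1j and Trim58 were low in all 4 groups. CPM values below are counts scaled to a common library size with TMM factors over all 24 libraries.

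**Figure D1:**
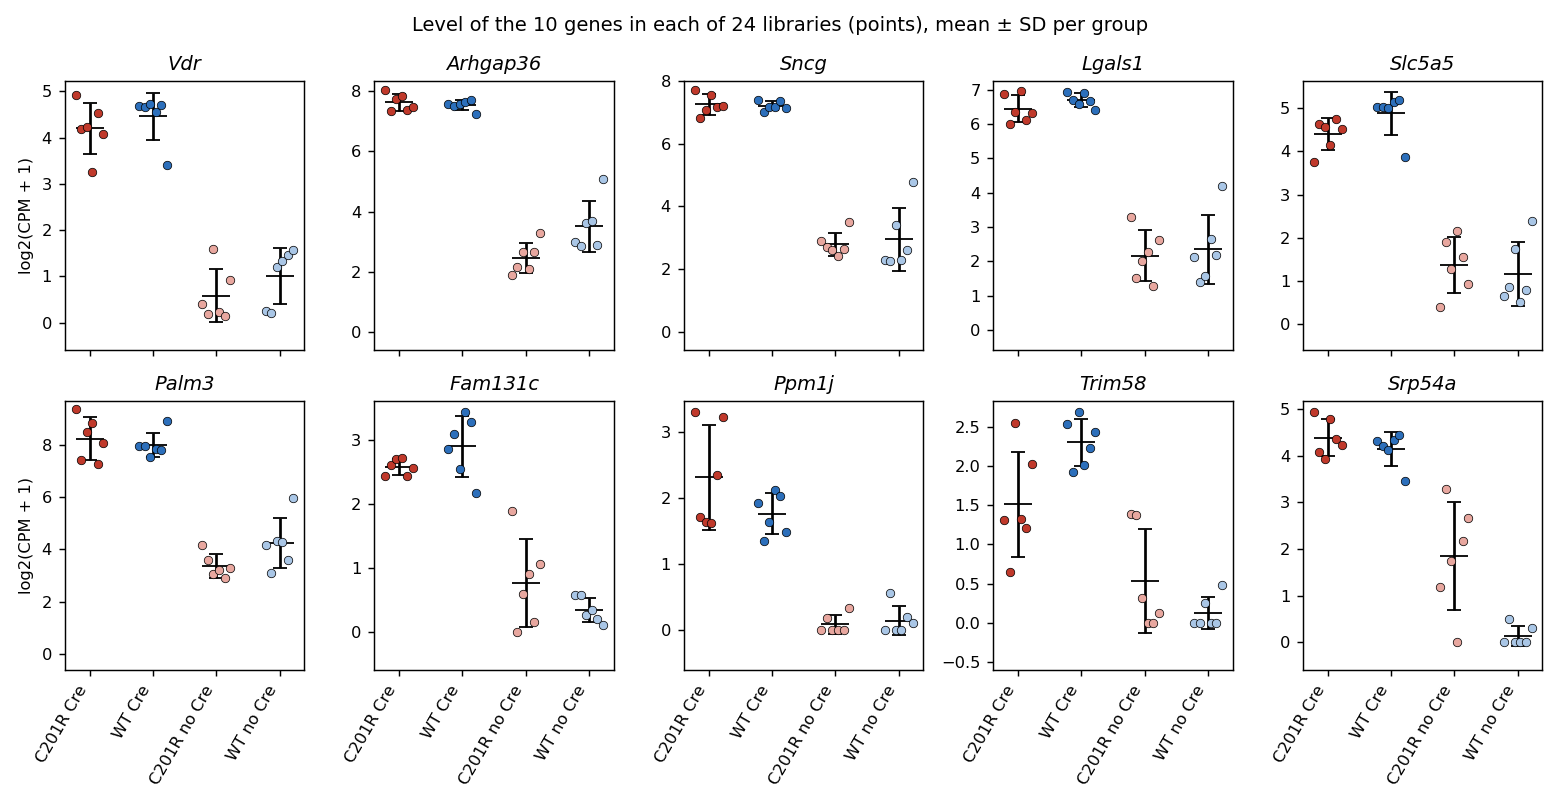
Level of each of the 10 genes in every library as log2(CPM + 1), with 6 points per group and the group mean ± SD in black. In 9 genes all 12 libraries with Cre lay above all 12 without it, and in Trim58, 8 of 12 did. Over all genes tested 11.1% showed no overlap in this direction. The members were chosen on this contrast, so nothing is read from the count.

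Vdr, the vitamin D receptor, had 8.58, 17.5 and 29.2 CPM (lowest, median, highest) in C201R Cre and 9.62, 24.5 and 25.4 CPM in WT Cre libraries. Without Cre it had 0.109, 0.248 and 2.01 CPM in C201R and 0.162, 1.40 and 1.99 CPM in WT libraries. The groups with and without Cre did not overlap, and those of the 2 genotypes did.

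Arhgap36 had 161, 193 and 260 CPM in C201R Cre and 149, 187 and 210 CPM in WT Cre libraries. Without Cre it had 2.73, 4.37 and 8.85 CPM in C201R libraries and 6.24, 9.12 and 32.8 CPM in WT libraries. The gene lies on the X chromosome, and the 2 genotypes overlapped with and without Cre.

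Sncg, gamma-synuclein, had 112, 145 and 209 CPM in C201R Cre and 130, 144 and 169 CPM in WT Cre libraries. Its levels without Cre were 4.38, 5.39 and 10.2 CPM in C201R and 3.81, 4.51 and 26.7 CPM in WT libraries. The highest WT value came from replicate 6 of that group, the same library that was highest for Arhgap36. Sensory ganglion neurons also contain Sncg as a rule, and 7 of their markers summed to 2.26 to 8.12 CPM in C201R Cre, 0.775 to 13.1 CPM in WT Cre, 0 to 38.9 CPM in C201R no Cre and 0.693 to 29.9 CPM in WT no Cre libraries.

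Lgals1, galectin-1, had 63.4, 79.7 and 124 CPM in C201R Cre and 83.9, 102 and 122 CPM in WT Cre libraries. Without Cre the values were 1.42, 3.44 and 8.68 CPM in C201R and 1.62, 3.41 and 17.4 CPM in WT libraries. The 2 genotypes overlapped both with and without Cre.

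Slc5a5, the iodide transporter, had 12.6, 22.2 and 26.0 CPM in C201R Cre and 13.6, 31.8 and 35.5 CPM in WT Cre libraries. Without Cre it had 0.321, 1.69 and 3.51 CPM in C201R and 0.443, 0.769 and 4.29 CPM in WT libraries. In WT Cre, 5 libraries lay between 30.9 and 35.5 CPM and replicate 6 lay alone at 13.6 CPM.

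Palm3 was the most abundant member by CPM, with 153, 308 and 651 CPM in C201R Cre and 182, 237 and 472 CPM in WT Cre libraries. Without Cre it had 6.53, 8.64 and 17.2 CPM in C201R and 7.62, 17.8 and 61.2 CPM in WT libraries. The 61.2 CPM was again WT no Cre replicate 6.

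Fam131c had 4.43, 5.05 and 5.62 CPM in C201R Cre and 3.52, 6.90 and 9.92 CPM in WT Cre libraries, against 0, 0.690 and 2.73 CPM in C201R no Cre and 0.0795, 0.232 and 0.490 CPM in WT no Cre libraries. Ppm1j, the phosphatase, had 2.09, 3.19 and 8.86 CPM in C201R Cre and 1.56, 2.46 and 3.34 CPM in WT Cre libraries. Its 12 libraries without Cre held 13 counts in all, and 4 of 6 C201R and 3 of 6 WT libraries had 0.

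Trim58 had 0.575, 1.49 and 4.85 CPM in C201R Cre and 2.79, 4.04 and 5.45 CPM in WT Cre libraries. Without Cre it had 0, 0.171 and 1.61 CPM in C201R and 0, 0 and 0.398 CPM in WT libraries. In WT the 6 libraries with Cre lay above all 6 without, whereas in C201R 2 of 6 did. Because the gene is known from red cells, blood cell markers are set beside it: 5 of 5 were lower with Cre, and their summed level was 22.7 to 492 CPM in C201R Cre, 26.0 to 182 CPM in WT Cre, 102 to 1654 CPM in C201R no Cre and 98.2 to 1480 CPM in WT no Cre libraries.

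Per transcript length, the median order in WT Cre libraries was Sncg (565 TPM), Lgals1 (416 TPM), Palm3 (258 TPM), Arhgap36 (174 TPM), Srp54a (34.4 TPM), Slc5a5 (30.1 TPM), Vdr (14.9 TPM), Fam131c (13.7 TPM), Trim58 (4.40 TPM) and Ppm1j (4.16 TPM). Sncg thus stood at rank 161 and Ppm1j at rank 9601 of the 20945 genes with a median TPM above 0. Neighbours in this order overlapped in their library ranges, except that Arhgap36 lay apart from Palm3 above it and from Srp54a below it. In C201R Cre libraries the median was 344 TPM for Sncg, 219 TPM for Lgals1, 203 TPM for Palm3 and 107 TPM for Arhgap36, and Ppm1j (3.48 TPM) stood above Trim58 (1.35 TPM) at the low end. TPM falls in a library where another gene takes a large share, as Gm26924 did here.

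The Cre over no-Cre log2 changes over both genotypes, from the edgeR fit of all 24 libraries, lay between 3.35 ± 0.64 for Trim58 and 4.95 ± 0.60 for Ppm1j (SE). Their median was 4.32, beside -0.11 over all 16109 genes tested. Ppm1j stood at rank 8, Srp54a at 11, Vdr at 14, Arhgap36 at 17, Sncg at 28, Lgals1 at 34, Slc5a5 at 40, Palm3 at 41, Fam131c at 73 and Trim58 at 94. Chat stood at rank 25. In 9 of 10 members the lowest library with Cre lay above the highest without, and over all genes tested 11.1% did so; the choice of members used this contrast, so nothing is read from the count. Among genes with a mean of at least 2 CPM, the highest were Gm10031 (6.49 ± 1.16), Calcb (5.04 ± 0.40), Uts2b (4.98 ± 0.34), Gm10094 (4.92 ± 0.68) and Uts2 (4.84 ± 0.56).

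Within a genotype the change was of similar size for Lgals1 (4.30 ± 0.30 in C201R and 4.23 ± 0.53 in WT), Slc5a5 (3.88 ± 0.40 and 4.22 ± 0.47), Sncg (4.57 ± 0.25 and 4.02 ± 0.51) and Vdr (4.90 ± 0.60 and 4.34 ± 0.46). Arhgap36 had 5.32 ± 0.30 in C201R and 3.85 ± 0.36 in WT, and Palm3 had 4.65 ± 0.24 and 3.40 ± 0.51. Ppm1j had 5.85 ± 0.87 in C201R and 4.27 ± 0.79 in WT. The other 3 were lower in C201R, with 2.54 ± 0.65 against 4.41 ± 0.50 in WT for Fam131c, 1.61 ± 0.84 against 5.04 ± 0.80 for Trim58 and 2.56 ± 0.64 against 6.92 ± 0.60 for Srp54a. The last put Srp54a at rank 424 in C201R and at rank 1 in WT. Single libraries without Cre moved several of these values by over 1.5 times as a ratio. In C201R, Trim58 had 2.63 without no Cre replicate 2, which held 22 of its 36 counts, Fam131c had 3.22 without replicate 1, Vdr 5.76 without replicate 3 and Ppm1j 6.64 without replicate 6. These were the upper ends. With any 1 library left out, the lowest C201R values were 1.06 for Trim58, 2.23 for Fam131c, 4.62 for Vdr and 5.41 for Ppm1j. In WT, Ppm1j had 5.66 and Srp54a 8.06 without no Cre replicate 2.

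**Figure D2:**
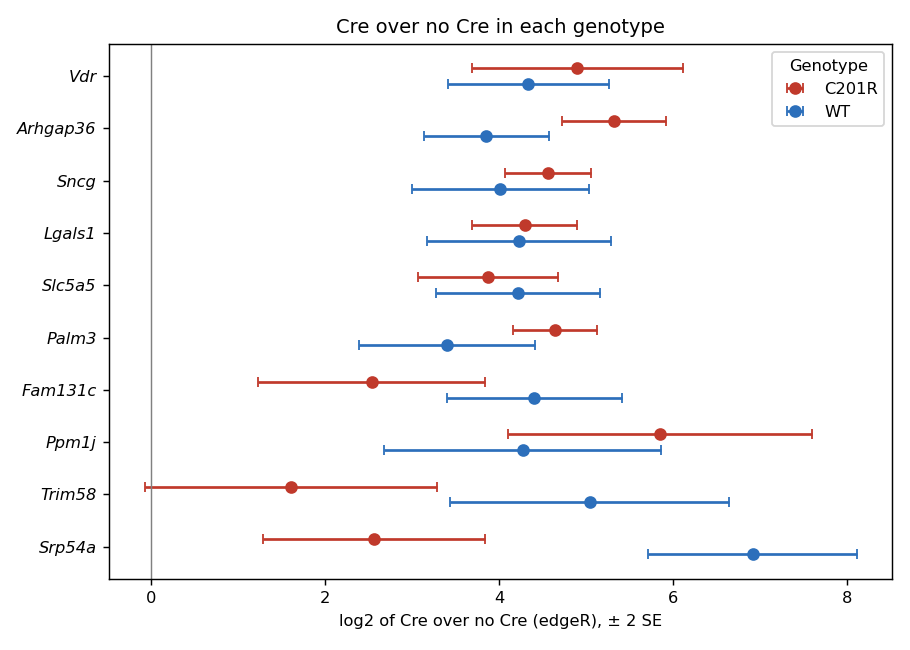
Log2 of Cre over no Cre in C201R (upper point) and WT (lower point) for each gene, with bars of ± 2 SE from edgeR. Srp54a, Trim58 and Fam131c lie lower in C201R, at 2.56, 1.61 and 2.54, than in WT, at 6.92, 5.04 and 4.41. Without 1 C201R no Cre library each, Trim58 and Fam131c in C201R lie at 2.63 and 3.22. Their lowest C201R values with any 1 library left out are 1.06 and 2.23.

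Few counts stood behind the low values. Ppm1j had 5 counts in C201R no Cre and 8 in WT no Cre, and the ratio of Cre to no Cre was 46.9 in C201R (exact binomial 95% interval 20.0 to 145) and 20.4 in WT (10.3 to 47.5). Trim58 had 36 counts in C201R no Cre and 7 in WT no Cre, and its ratio was 3.16 in C201R (2.22 to 4.61) and 36.2 in WT (17.5 to 90.4). These ratios are of summed counts over summed scaled library sizes, and their intervals cover counting error only.

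Srp54a had 14.2, 18.7 and 29.5 CPM in C201R Cre and 10.0, 18.2 and 20.9 CPM in WT Cre libraries. Without Cre it had 0, 2.91 and 8.81 CPM in C201R and 0, 0 and 0.405 CPM in WT libraries, where 4 of 6 libraries were at 0. Since its reads match Srp54b entirely, the sum over the 3 copies was set beside it. That sum was 119.5 ± 9.9 CPM in C201R Cre, 121.2 ± 11.4 CPM in WT Cre, 37.0 ± 13.8 CPM in C201R no Cre and 39.5 ± 12 CPM in WT no Cre libraries (SD, n = 6 each).

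The ratio of the sum with Cre to that without was 3.01 in C201R and 3.08 in WT, beside the spread between mice just given. The ratio of Srp54a alone was 4.41 in C201R and 144 in WT. The WT value rests on 8 counts in WT no Cre libraries (exact binomial 95% interval 73.0 to 334, counting error only). For Srp54a and Srp54b together the ratio was 2.39 in C201R and 2.80 in WT. The ratio for which Srp54a was picked was thus not that of the 3 copies summed.

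Srp54a took 46.4 ± 14% of the reads of Srp54a and Srp54b in C201R Cre, 33.6 ± 3.0% in WT Cre, 19.6 ± 17.9% in C201R no Cre and 0.555 ± 0.947% in WT no Cre libraries (SD, n = 6 each). The share was 27.7 to 35.8% in all 6 WT Cre libraries and 32.6 to 66.4% in the C201R Cre libraries, so these groups overlapped. In C201R no Cre it spread from 0 to 50.4%.

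**Figure D3:**
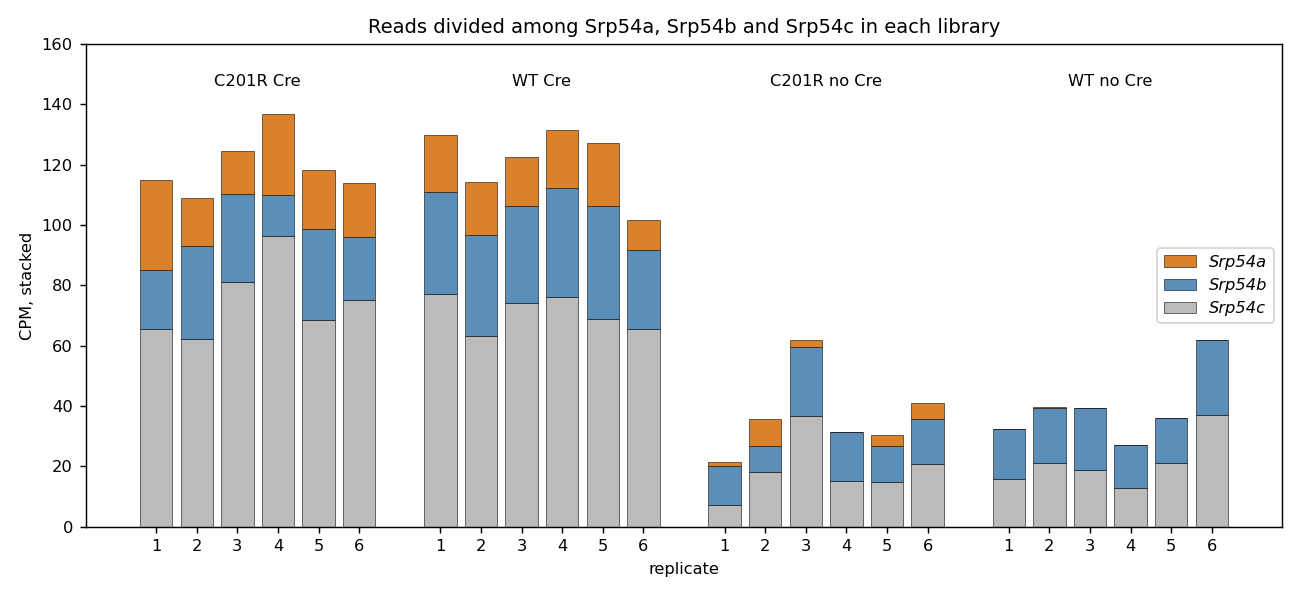
CPM assigned to Srp54a (top), Srp54b and Srp54c (bottom) in each of the 24 libraries, stacked. The sums lie between 102 and 137 CPM in the 12 libraries with Cre and between 21.5 and 62.0 CPM without it, while the Srp54a part ranges from 0 to 29.5 CPM.

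Between genotypes, the mean log2(CPM + 1) of the sum was 6.91 in C201R Cre and 6.93 in WT Cre, a difference of -0.018 (exact two-sided permutation p = 0.81, and 0.82 with labels exchanged only within library series). Without Cre the means were 5.17 in C201R and 5.29 in WT (difference -0.12, exact permutation p = 0.66). No difference in the sum was detectable with 6 mice per group, where the smallest possible p is 0.0022.

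With Cre, C201R was then compared with WT in edgeR, a contrast that did not choose the members. Of the 10 members 0 were called at an adjusted p under 0.05, against 4.11% of the 14634 genes tested. The members' median log2 change was -0.09, beside -0.01 over all genes. An unadjusted p under 0.05 was found for 3 of the 10 members and for 2687 of the 14634 genes tested. The count of 601 called genes was not stable: it ranged from 170 to 936 when any 1 library was left out. It moved by over 1.5 times without C201R Cre replicates 1, 2, 4 or 6 or WT Cre replicates 1, 2, 3, 4 or 5.

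Slc5a5 differed by -0.43 ± 0.19 (SE, adjusted p = 0.244), Ppm1j by 0.93 ± 0.43 (adjusted p = 0.269) and Trim58 by -1.02 ± 0.43 (adjusted p = 0.215). Lgals1 differed by -0.30 ± 0.17 (adjusted p = 0.355) and Fam131c by -0.37 ± 0.26 (adjusted p = 0.497). The values were -0.19 ± 0.28 for Vdr, 0.07 ± 0.14 for Arhgap36, 0.02 ± 0.14 for Sncg, 0.10 ± 0.22 for Palm3 and 0.26 ± 0.23 for Srp54a. Intervals of ± 2 SE ran from -0.21 to 0.35 for Arhgap36 and from -0.26 to 0.31 for Sncg, so a log2 change of 1 would lie outside them. For Ppm1j and Trim58 they reached 1.80 and -1.88.

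Library series, read from 2 separate runs of library numbers, was a term in the fit. Among the 7 libraries with Cre of series 2 alone, 2 of 10 members were called lower in C201R, beside 5.38% of all genes. These were Lgals1 at -0.56 ± 0.12 (adjusted p = 0.0071) and Slc5a5 at -0.47 ± 0.13 (adjusted p = 0.030). In the 5 libraries with Cre of series 1, Lgals1 had 0.10 ± 0.34 and Slc5a5 -0.35 ± 0.50 (adjusted p = 0.9996 for both). The summed level of the 8 cholinergic and motor neuron markers in series 2 was 1233 to 1417 CPM in C201R Cre and 1509 to 1804 CPM in WT Cre libraries, without overlap. In series 1 this sum was 974 to 1226 CPM in C201R Cre and 1020 to 1704 CPM in WT Cre libraries, with overlap. Of these 8 markers, 2 were called lower in C201R over all 12 libraries, Chodl (-1.02 ± 0.14) and Calca (-1.47 ± 0.24), while Chat had 0.24 ± 0.17 (adjusted p = 0.512). The other 6 were not called, and the median log2 change of the 8 was 0.15, so the list as a whole was not lower. The part of these markers in the member values was not tested. The same 2 genes were called without C201R Cre replicate 1 and WT Cre replicate 6, the libraries with Cre that held the most mitochondrial RNA (15.8% and 17.1%). There Lgals1 had -0.46 ± 0.14 (adjusted p = 0.039) and Slc5a5 -0.51 ± 0.13 (adjusted p = 0.015), beside 6.79% of all genes called lower. With the Gm26924 share as a covariate over all 12 libraries, Slc5a5 had -0.11 ± 0.20 (adjusted p = 0.930), Lgals1 -0.44 ± 0.20 (adjusted p = 0.513) and Palm3 -0.45 ± 0.12 (adjusted p = 0.106).

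**Figure D4:**
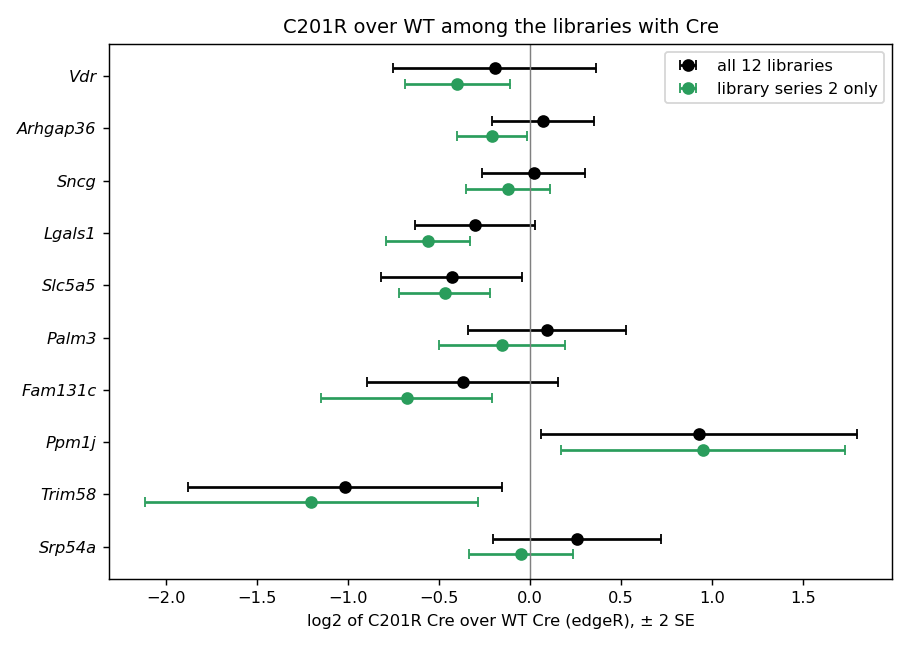
Log2 of C201R Cre over WT Cre for each gene with all 12 libraries (upper, black) and with library series 2 only (lower, green), with bars of ± 2 SE from edgeR. Lgals1 and Slc5a5, the 2 genes called in series 2, lie at -0.56 and -0.47 there; other bars that miss 0 belong to genes not called after adjustment.

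The TMM-scaled levels of Palm3 and Slc5a5 were next set beside the Gm26924 share of the library. In the 4 libraries with Cre where that share exceeded 30%, a limit chosen after the values were seen, Palm3 had 351, 462 and 651 CPM (lowest, median, highest). In the other 8 it had 153, 222 and 265 CPM, and the ranges did not overlap. The separation of Palm3 depended on the scaling. In the deposited TPM it had 158 to 226 in the 4 and 191 to 275 in the 8 libraries, and as CPM over library totals 291 to 401 and 256 to 378, with overlap in both. Slc5a5 had 12.6, 15.2 and 22.6 CPM in the 4 and 21.8, 31.3 and 35.5 CPM in the 8 libraries, with a small overlap, and was lower in the 4 without overlap on both other scales. On those scales further members were lower in the 4 libraries too, among them Arhgap36 (50.3 to 103 against 111 to 196 TPM) and Sncg (166 to 308 against 381 to 640 TPM). The 4 libraries were C201R Cre replicates 1, 3 and 4 and WT Cre replicate 6, all of library series 1. The fifth library with Cre of that series, WT Cre replicate 1, had a Gm26924 share of 11.9%, 247 CPM of Palm3 and 31.8 CPM of Slc5a5. By TMM-scaled CPM the other 8 members overlapped between the 4 and the 8 libraries. The part of ribosomal RNA in these values was not tested.

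**Figure D5:**
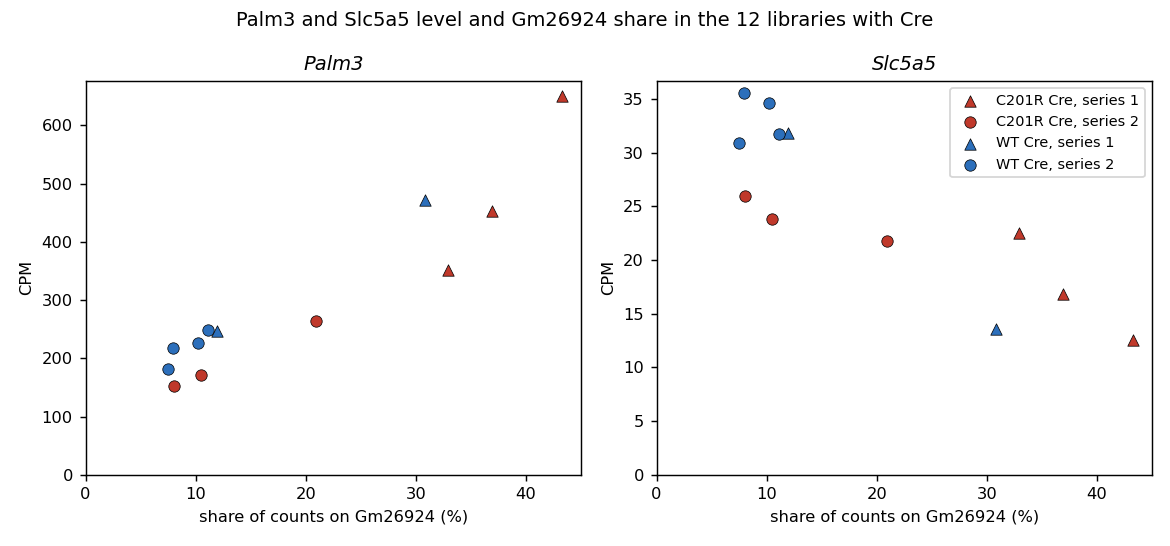
TMM-scaled CPM of Palm3 (left) and Slc5a5 (right) against the percentage of counts on Gm26924 in the 12 libraries with Cre, by group (colour) and library series (shape). The 4 libraries above 30% hold the 4 highest Palm3 values on this scale, 351 to 651 CPM, which overlap the others in TPM.

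Without Cre the same genotype contrast gives the background. Only 5 of 10 members passed the filter on low counts, namely Arhgap36, Sncg, Lgals1, Slc5a5 and Palm3, and 0 of these were called by edgeR, as were 0% of the 14400 genes tested. At an unadjusted p under 0.05 there were 455 genes, with Arhgap36 (-1.35 ± 0.39) and Palm3 (-1.16 ± 0.44) among them. With any 1 library left out, these changes ran from -1.56 to -0.89 for Arhgap36 and from -1.56 to -0.62 for Palm3. Chat, at -1.20 ± 0.52, lay on the same side. DESeq2 called 4 genes, 0.0131% of those with an adjusted p, and Srp54a was 1 of them at 5.43 ± 1.11 (adjusted p = 0.0091). With no filter on low counts edgeR called 6 genes, 0.0194% of those tested, and Srp54a was again 1 of them at 5.09 ± 0.99 (adjusted p = 0.018). The exact permutation test of Srp54a alone without Cre gave p = 0.015. Its mean log2(CPM + 1) was 1.84 in C201R and 0.13 in WT libraries, and the read split above applies. Srp54a was chosen on its Cre over no-Cre counts, which include these low values. No difference is therefore read from its calls or from this p.

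WT no Cre replicate 6 held the highest WT no-Cre value of 7 members. Its summed level of 8 cholinergic and motor neuron markers was 314 CPM, against 74.0 to 164 CPM in the other 5 WT no Cre and 66.6 to 85.1 CPM in the C201R no Cre libraries. Its oligodendrocyte sum, 5985 CPM, lay within the range of its group, 4573 to 8427 CPM. Without this library the log2 change in WT was 4.43 for Arhgap36, 4.79 for Sncg, 5.07 for Lgals1, 4.90 for Slc5a5, 4.06 for Palm3 and 6.41 for Trim58, in place of 3.85, 4.02, 4.23, 4.22, 3.40 and 5.04.

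The genotype by Cre interaction sets the genotype change with Cre against that without. It contains the contrast that chose the members, so nothing about them is read from its calls. Of the 10 members 1 passed, beside 0.13% of the 16109 genes tested, and this was Srp54a at -4.57 ± 0.93 (adjusted p = 0.038). Srp54a entered the fit only through its counts with Cre, was at 0 in 4 of 6 WT no Cre libraries and shares its reads with Srp54b, and the sum of the 3 copies differed by -0.018 with Cre and by -0.12 without. The call was lost when any 1 of 18 of the 24 libraries was left out (adjusted p from 0.0017 to 0.109). It was kept only without C201R Cre replicate 1, C201R no Cre replicates 1, 3 or 4, WT Cre replicate 6 or WT no Cre replicate 2. Arhgap36 had 1.53 ± 0.46 (adjusted p = 0.255) and Palm3 1.49 ± 0.55 (adjusted p = 0.425), and without WT no Cre replicate 6 they had 0.94 and 0.83. Chat, at 1.47 ± 0.45 (adjusted p = 0.261), was close to Arhgap36 in size.

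Genes of the members' pathways were described from lists that leave the members out. With Cre over both genotypes, 33.4% of all genes tested were called higher and 37.4% lower by edgeR's quasi-likelihood test. With library totals in place of TMM, 7421 of 11286 called genes were higher, and the median of all genes was 0.55. The directions of the list genes named here were the same under both, but the lower calls of Ncor1 (-0.51) and Palm2 (-0.14) were lost with library totals. Of the signal recognition particle and its receptor 9 of 9 genes were higher, among them Srp14 (1.75 ± 0.17), Srp9 (1.70 ± 0.16), Srpr (1.49 ± 0.15) and Srp54c (1.90 ± 0.20), with a list median of 1.34 beside -0.11 over all genes. This list holds Srp54b and Srp54c, which share reads with the member Srp54a, so their values are not independent of it. Of the dynein genes 8 of 9 were higher, led by Dync1li1 (2.42 ± 0.13), Dynlrb1 (2.2 ± 0.15), Dynll1 (2.28 ± 0.16) and Dync1i1 (2.04 ± 0.17).

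Genes of vitamin D signalling went both ways, with 4 of 12 tested genes higher and 5 lower. Pdia3, a protein disulfide isomerase (1.57 ± 0.16), and Rxra, a retinoid X receptor (1.35 ± 0.21), were higher. Calb1, the calcium buffer calbindin (-2.99 ± 0.31), and Ncor1, a corepressor (-1.18 ± 0.18), were lower. In Hedgehog signalling and protein kinase A, 7 of 17 were higher and 9 lower. The kinase subunits Prkaca (2.08 ± 0.12), Prkar1b (2.13 ± 0.14) and Prkar1a (1.60 ± 0.11) were higher, while Ptch1, the Hedgehog receptor, was lower (-2.19 ± 0.22).

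The relatives of the other members are given as values beside them. Sncb, beta-synuclein, was higher by 1.07 ± 0.22. Palm (1.69 ± 0.17) and Palmd (1.71 ± 0.25) were higher and Palm2 lower (-0.81 ± 0.23). Fam131a (1.28 ± 0.24) and Fam131b (0.56 ± 0.17) were higher. Of 6 galectins tested 2 were higher and 2 lower, with Lgals8 at 1.56 ± 0.23 and Lgals4 at -3.88 ± 0.78. Of 6 SLC5 transporters 2 were higher and 3 lower, with the choline transporter Slc5a7 at 3.83 ± 0.20 and the inositol transporter Slc5a3 at -1.75 ± 0.16. Of 17 PPM phosphatases 7 were higher and 5 lower, with Pdp1 at 1.96 ± 0.16 and Phlpp1 at -1.99 ± 0.15. Of 5 thyroid hormone genes 2 were higher and 3 lower, with Tshr at 1.83 ± 0.45 and Dio2 at -2.58 ± 0.32.

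Between genotypes with Cre, 8 of the 82 list genes tested were called, 2 higher and 6 lower, beside 4.11% of all genes, and with library totals 0 of them were. Among them Srp14 (0.52 ± 0.13, adjusted p = 0.041) was higher in C201R. Palmd (-1.26 ± 0.21, adjusted p = 0.0038), Tshr (-1.64 ± 0.38), Thrb (-0.83 ± 0.22), Ncoa1 (-0.67 ± 0.15) and Ppm1f (-0.69 ± 0.17) were lower. When single libraries were left out, 1 paralemmin was always called, whereas the number called in each of the other lists named here fell to 0 without at least 1 library. The Hedgehog, galectin, SLC5, FAM131 and dynein lists had 0 genes called.

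The genes whose levels tracked the members most closely over the 24 libraries were mostly other Cre-enriched genes, since the points share their Cre status. Pearson's r of log2(CPM + 1) was 0.99 between Palm3 and Nefm, between Sncg and Prph, and between Arhgap36 and Acly. It was 0.97 between Vdr and Cend1 and 0.97 between Slc5a5 and Elavl2. It was 0.95 between Srp54a and Nap1l4, 0.94 between Fam131c and Nfe2l1, 0.93 between Ppm1j and Ttc19 and 0.90 between Trim58 and Slc35f3. Over the 12 libraries with Cre, the closest genes were others: Pomp for Palm3 (0.98), Cdh12 for Slc5a5 (0.99), Ptplb for Vdr (0.94), Ptn for Sncg (0.93), Atp6v1b2 for Arhgap36 (0.94) and Flt3 for Lgals1 (0.94). Each of these is the highest r among many genes over only 12 points, so no relation is read from it. Between members, Palm3 and Slc5a5 had an r of -0.81 over these 12 libraries, the lowest of all member pairs. It was taken on TMM-scaled CPM, the scale on which the separation of Palm3 above depended.

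The neighbouring genes that were tested had log2 changes with Cre between -3.46 and 2.15. Beside Vdr on chromosome 15, Hdac7 changed by -3.46 ± 0.29 with Cre and Tmem106c by 0.45 ± 0.24 (adjusted p = 0.089). Mmrn2 beside Sncg changed by -3.26 ± 0.72, Pdxp and Nol12 beside Lgals1 by 1.15 ± 0.16 and 0.26 ± 0.30, and Enox2 beside Arhgap36 by 1.97 ± 0.23. Ccdc124 beside Slc5a5 changed by 2.15 ± 0.22. Sncg lies on chromosome 14, as does Chat, the locus that carries Cre. Of the 28 protein-coding genes between them 11 were tested, 1 of these was higher with Cre and 7 were lower, and their median log2 change was -1.66.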

How the data were processed

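Each library was deposited as a table of RSEM expected counts and TPM per gene. The submitters' processing notes name Bowtie2 2.2.0 and RSEM 1.2.12 as the tools behind the authors' expected counts. Build and annotation are not given in the sources used here. TPM values were used as deposited. RSEM divides reads among genes with shared sequence. Expected counts were rounded to whole numbers. After filterByExpr and TMM scaling, genes were tested by the robust quasi-likelihood F test of edgeR 4.0.16 (R 4.3.3), with library series as a term and Benjamini-Hochberg adjustment over all genes tested. Genes are called at an adjusted p under 0.05; the SE is the log2 change over the square root of F. Genotype contrasts and within-genotype contrasts used 12 libraries each, and the interaction and pooled enrichment used 24. The Srp54 sum was compared by an exact permutation test (scipy 1.17.1).

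Of the gene identifiers, 37607 of 38924 matched GENCODE M21, and all 10 members kept their symbol. The members, lists and rule for named genes were chosen with earlier results of these data known. Named genes were the members, checks, up to 4 called genes per list, the genes with the highest Pearson correlation, the neighbours and the 5 most enriched genes. In simulated data for the genotype contrast with Cre (14634 genes, 200 changed), edgeR recovered 29% of 2-fold and 70% of 4-fold changes, and 2.94% of its calls were wrong. The simulated libraries held no library series effect and did not differ in Gm26924 or mitochondrial share. These rates therefore need not hold for the calls in the real libraries. The alternatives were RLE scaling, library totals, no filter, DESeq2 1.42.0, other covariates, a mouse number prefix as a replicate block, single library series and leaving out libraries. The replicate numbers printed name libraries only and pair none. Some genes that the rule selects are not reported here.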

Additional observations from a re-analysis of the deposited data

Results flagged for a closer look

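Dixon's criterion on log2(CPM + 1) picked out a library standing apart in 6 of 40 sets of values. Chance alone gives about 1 in 20 for independent, normally distributed values. The 40 sets share the same libraries and some hold few counts, so 6 of 40 cannot be judged against that rate. WT Cre replicate 6 accounted for 4 of the 6 sets picked out. It had 9.62 CPM of Vdr, 13.6 CPM of Slc5a5 and 10.0 CPM of Srp54a as the lowest and 472 CPM of Palm3 as the highest of its group. In that library mitochondrial RNA took 17.1% and Gm26924 30.8% of counts. WT no Cre replicate 6 had 32.8 CPM of Arhgap36, the highest of its group, and WT no Cre replicate 2 had 0.486 CPM of Ppm1j. Srp54a had a log2 interaction of genotype and Cre of -4.57 in edgeR (adjusted p = 0.038). No difference is read from it, since the gene was chosen on its Cre over no-Cre counts, entered the fit only through libraries with Cre and shares its reads with Srp54b.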

How the results depend on the processing

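With Cre, 601 genes were called between genotypes (335 higher in C201R). The count was 32 with library totals (24 higher), 1374 with DESeq2, 291 without the library series term, 75 with the prefix of the mouse number as replicate block (60 higher), 359 with an Xist covariate, 122 with a Gm26924 share covariate (89 higher), 1370 in library series 2, 1 in library series 1 and 1950 without C201R Cre replicate 1 and WT Cre replicate 6. It ran from 170 to 936 when single libraries were left out. Members called stayed at 0 in all of these except series 2 and the fit without those 2 libraries, with 2 each; the median change over all genes was -0.01, and -0.26 with library totals. Without Cre, 0 genes were called, against 6 with no filter and 4 with DESeq2, with 1 member, Srp54a, in each, and 1 gene under the prefix block. The interaction count was 21, against 1 with library totals, 179 with DESeq2, 6 under the prefix block, 43 without the 2 libraries and 11 to 37 with single libraries left out. Its called member was lost, leaving 0, with library totals, with no filter and under the prefix block (adjusted p for Srp54a 0.077, 0.098 and 0.11), and 0 to 1 members were called with single libraries left out. The pooled Cre enrichment called 3374 genes in library series 1 alone, beside 11401 in all 24 libraries (5374 higher), and 11286 with library totals (7421 higher). The Srp54 difference of -0.018 turned to 0.24 for Srp54a alone (exact permutation p = 0.29), to -0.41 with library totals (p = 0.288) and to -0.12 in library series 2 (p = 0.114), and ran from -0.068 to 0.0072 with single libraries left out, turning sign without C201R Cre replicate 2, WT Cre replicate 1 or WT Cre replicate 4. Within mouse number prefixes 14004, 14701 and 14703 it was -0.087, 0.29 and -0.21. With labels exchanged only within these prefixes as a replicate block, an alternative chosen after seeing the data, the difference over 8 libraries was -0.022 (exact permutation p = 0.917, smallest possible 0.0833). The genotype change with Cre was on the other side of 0 in 5 of 11 settings for Arhgap36, 7 for Sncg, 4 for Palm3, 2 for Srp54a and 1 each for Vdr, Lgals1 and Fam131c, and in 0 for Slc5a5, Ppm1j and Trim58. The causes were not tested. Summed counts under 10 leave a ratio known only within a wide interval. This holds for Ppm1j without Cre in both genotypes and for Trim58 and Srp54a in WT no Cre libraries.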
